A study of Homo sapiens with 4 samples.

Results

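The apolipoprotein gene loci are the 10 genes APOB, APOA1, APOC3, APOA4, APOA5, APOE, APOC1, APOA2, APOH and APOM, each taken with 10 kb either side, and the ChIP-seq peaks that overlap those windows. They held 51 peaks of 46380 in all, of which 30 came from the SMRC1 library (of 29441), 10 from the SATB1 library (of 3296) and 11 from the NFIC library (of 13643). The peaks were chosen by position, but the genes were selected on knowledge of these lists, since APOB was known to hold the widest SATB1 peak. The number of peaks at APOB and the width of that peak are therefore given as a description. Windows of neighbouring genes overlap, so the 10 genes form 7 separate loci, which cover 240 kb together, and APOA1, APOC3 and APOA4 share peaks, as do APOE and APOC1.

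The cells were HepG2, an established line from a human liver tumour, untreated apart from fixation with 1% formaldehyde (10 min). Chromatin was precipitated with 1 antibody per library, against SMRC1 (the database name of SMARCC1, or BAF155, a core subunit of SWI/SNF chromatin remodellers), SATB1 (a chromatin organiser that binds AT-rich DNA) or NFIC (a nuclear factor I transcription factor). The study set its own antibodies beside published profiles from commercial ones, which were not used here. Each antibody had 1 library, so there is no replicate spread, no test was made between antibodies, and every value describes these libraries. No RNA was measured, so neither the cell type nor the activity of the genes could be checked against marker expression.

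Apolipoproteins coat the particles that carry fats in blood. Hepatocytes make most of them: APOB is the large scaffold protein of very low and low density lipoproteins, APOA1 and APOA2 are the main proteins of high density lipoproteins, and the smaller exchangeable apolipoproteins steer lipases and receptors. Several of the genes arose by duplication and still lie side by side, on chromosome 11 (APOA5, APOA4, APOC3 and APOA1) and on chromosome 19 (APOE and APOC1). NFIC belongs to a family that binds DNA at the core TTGGC, so that core was searched in promoter sequence.

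Peaks of SMRC1 and NFIC lay at the starts of APOA2 and APOH. At the start of APOE only SMRC1 peaks were listed, as at those of APOA1, APOA5 and APOM. The 250 bases before the start of APOA2, APOH and APOE are shown from the RefSeq table of the build GRCh38.p14. They run 5′ to 3′ along the gene, with each TTGGC on either strand in capitals. The APOA2 sequence is chr1:161223629-161223878 (minus strand), that of APOH chr17:66229416-66229665 (minus strand) and that of the first of 3 APOE starts chr19:44905546-44905795 (plus strand).
APOA2: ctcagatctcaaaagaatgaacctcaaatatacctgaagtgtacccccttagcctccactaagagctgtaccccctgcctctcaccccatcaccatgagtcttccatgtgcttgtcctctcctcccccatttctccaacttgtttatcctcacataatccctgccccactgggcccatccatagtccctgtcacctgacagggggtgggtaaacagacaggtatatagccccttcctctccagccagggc
APOH: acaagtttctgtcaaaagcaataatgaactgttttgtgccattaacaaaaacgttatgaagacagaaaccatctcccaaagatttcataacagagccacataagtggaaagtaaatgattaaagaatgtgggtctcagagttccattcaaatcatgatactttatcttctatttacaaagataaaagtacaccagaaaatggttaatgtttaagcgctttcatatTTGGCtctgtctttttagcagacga
APOE: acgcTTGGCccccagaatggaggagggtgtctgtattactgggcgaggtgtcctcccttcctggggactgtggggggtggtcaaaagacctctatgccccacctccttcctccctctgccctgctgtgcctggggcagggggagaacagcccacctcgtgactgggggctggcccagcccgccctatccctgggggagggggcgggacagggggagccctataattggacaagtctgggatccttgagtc
The APOH promoter held 1 TTGGC, whose first base lies 25 bases before the start, and 66.8% of its bases were A or T. The first of the 3 APOE promoters held 1, with its first base 246 bases before the start. The later APOE promoters, which are not shown, held none, and the APOA2 promoter held none. RefSeq promoters were matched for 7 of the 10 genes (10 promoters, since APOA5 and APOE have more than 1), and APOB, APOA1 and APOC3 had no entry. TTGGC was found on either strand for 2 of the 7 genes, APOH and APOE, and in 2 of the 10 promoters, against 40.8% of 35116 promoters of the same length. The full site, TTGGC followed after any 5 bases by its reverse complement, was in 0 of the 10 and in 0.0285% of all promoters. Presence of the letters is a description and not a binding site. The peaks are on hg19 and the sequences on GRCh38, so a match could not be placed within a peak.

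All 10 gene windows held an SMRC1 peak, 6 held an NFIC peak and 2 held a SATB1 peak. The windows of APOA1, APOC3 and APOA4 overlap and held the same 1 NFIC peak. Counts by gene are therefore not independent, whereas the genome tiles below do not overlap. Over the genome, 15.8% of consecutive 24 kb tiles of hg19 held an SMRC1 peak, 9.05% an NFIC peak and 2.33% a SATB1 peak, where 24 kb is close to the median window length. The windows range from 22 to 63 kb, and the tiles include assembly gaps and gene deserts, so the tiles are a level for the genome and not for expressed genes. Counted per 100 kb, the windows held 12.5 SMRC1 peaks against 0.951 over the genome, 4.58 NFIC peaks against 0.441, and 4.17 SATB1 peaks against 0.106. All but 1 of the 10 SATB1 peaks and 7 of the 11 NFIC peaks were at APOB. Leaving out the APOB window, which was tried after seeing the data, the others held 11.9 SMRC1, 2.26 NFIC and 0.565 SATB1 peaks per 100 kb, the last from 1 peak. SMRC1 peaks covered 9.67% of the window bases (0.664% of the genome), SATB1 peaks 3.90% (0.0490%) and NFIC peaks 2.59% (0.234%). Without APOB these were 9.21%, 0.191% and 0.983%. APOE, APOC1 and APOM held SMRC1 peaks alone.

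**Figure D1:**
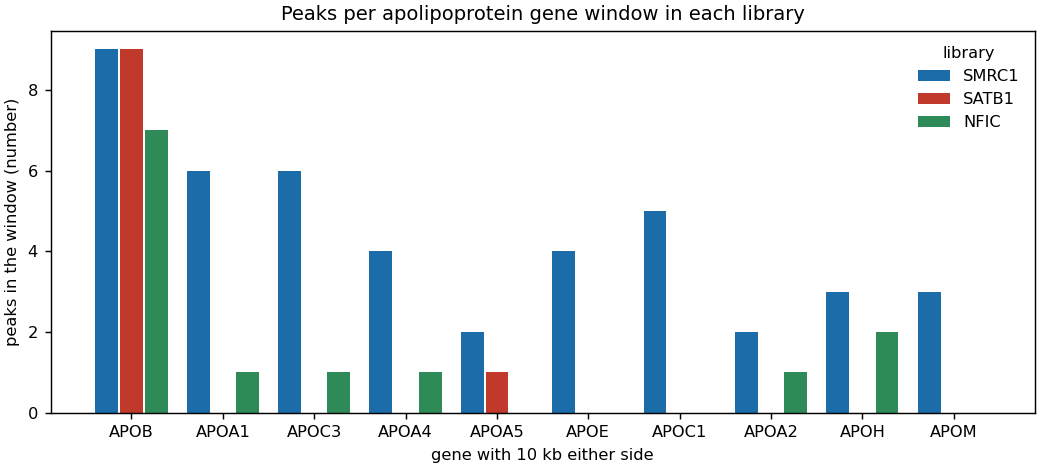
Number of peaks of each library (bars, 1 library each) in the window of each gene with 10 kb either side. Each window has SMRC1 peaks, from 2 to 9, SATB1 peaks stand at APOB (9) and APOA5 (1), and peaks that lie in overlapping windows are counted at each gene.

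SMRC1 peaks lay at the start of 8 of the 10 genes, NFIC peaks at the start of 4 (APOB, APOC3, APOA2 and APOH) and a SATB1 peak at the start of 1 (APOB). The share of all genes with a peak at the start was not measured. These counts therefore have no genome level beside them and show no trait particular to these genes. A peak was taken as at the start where it reached within 1 kb of it, because the gene bounds were known to the kb only, and distances below carry that error. The genes without an SMRC1 peak at the start were APOA4 and APOC1, whose nearest SMRC1 peaks lay 3.1 and 2.1 kb from the gene. The values given for a peak are those of the authors' peak caller. The fold is the ratio of signal to local background at the summit, and −log10 q is the false discovery estimate, higher for a surer peak. Reads at the summit, and the reads expected there from the background, were worked back from each peak's deposited fold and p-value for 43 of the 51 peaks, and are missing for 8 SMRC1 peaks where more than 1 solution was possible.

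APOB, on chromosome 2 at 21224 to 21267 kb and transcribed towards lower coordinates, carried 25 of the 51 peaks. Its 63 kb window held 9 SMRC1, 9 SATB1 and 7 NFIC peaks. Among 49127 tiles of that length, 0.126% held as many SMRC1 peaks, 0% as many SATB1 peaks and 0.00611% as many NFIC peaks. The tiles lie on a fixed grid, and a grid edge cuts the APOB window. Its 9 SATB1 peaks, and its peaks of the other libraries, were thus split between tiles. No tile holds this window as a whole, and the 0% does not count it. The gene was also chosen for its SATB1 peak, so these shares do not measure how unusual it is. SATB1 peaks covered 14.3% of the window, SMRC1 peaks 10.98% and NFIC peaks 7.09%. Where the −log10 q had to reach 10, SATB1 peaks covered 10.4%, SMRC1 peaks 6.59% and NFIC peaks 2.05%.

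The widest SATB1 peak of the whole list lay inside APOB, at 21227712 to 21232164 (hg19). It was 4453 bp wide, and the next widest SATB1 peak, on chromosome 16 at 30788670 to 30791489, was 2820 bp wide. Its summit lay 36.4 kb from the start of the gene and 6.6 kb before its end, with a fold of 8.67 and 61 reads where 6.15 were expected. By fold and by −log10 q (33.6) it ranked 26th of 3296, within the top 1% on both. No SMRC1 or NFIC peak overlapped it.

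Further SATB1 peaks lay in the body of APOB. The peak at 21224102 to 21224413 lay at the far end of the gene (fold 4.15, 29 reads), and 3 more had summits 24.0, 22.6 and 20.5 kb from the start, with folds of 4.25, 3.57 and 3.58 and 24, 19 and 21 reads. These 4 and the widest peak were the 5 SATB1 peaks of all windows that shared no base with either other list. SATB1 peaks covered 15.3% of the 43 kb gene, SMRC1 peaks 9.22% and NFIC peaks 3.44%. The SMRC1 peaks in the body, away from the start, were 1 with its summit 26.5 kb in (fold 3.01) and a pair 5.2 and 6.1 kb in (folds 4.03 and 3.43).

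Peaks of all 3 libraries met at 3 sites, all in the APOB window. Sites of all 3 libraries were not counted over the whole lists. Also, 9 of the 10 SATB1 peaks of the windows were at APOB, the gene chosen for its SATB1 peak. The first site was the start of APOB. There an SMRC1 peak at 21264487 to 21267469 was 2983 bp wide, within the top 1% of its list by width, with a fold of 4.60, a −log10 q of 34.6 and 141 reads where 29.6 were expected. It spanned 3 NFIC peaks, at 21264823 to 21265217 (fold 3.36, 44 reads), 21265663 to 21266330 (fold 2.76, 49 reads) and 21266586 to 21267243 (fold 2.58, 64 reads). The SATB1 peak there, at 21266621 to 21267132, had a fold of 3.78, a −log10 q of 15.4 and 69 reads, the highest SATB1 read number in the windows. The expected reads were also higher here than at any other APOB peak of the same library for which they were recovered, at 17.5 for SATB1 and up to 24.2 for NFIC.

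The second site lay 3.1 to 3.4 kb before the start. Its SMRC1 peak, at 21270017 to 21270605, had a fold of 5.80 and 60 reads. The NFIC peak, at 21269855 to 21270481, had a fold of 4.67, 46 reads and the highest −log10 q of the NFIC peaks at APOB (14.3). The SATB1 peak, at 21270065 to 21270391, was weak, with a fold of 3.22, a −log10 q of 3.42 and 23 reads.

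The third site lay just past the end of the gene and was a chain of 7 overlapping peaks. The highest fold and −log10 q listed there were those of SATB1. Its peak at 21221556 to 21223139 was 1584 bp wide, the 7th widest of its list, with a fold of 6.53, a −log10 q of 20.4 and 48 reads where 6.50 were expected. A second SATB1 peak, at 21223321 to 21223724, had a fold of 4.42 and 24 reads. The NFIC peaks at 21222037 to 21222900 and at 21222960 to 21223623 had folds of 4.64 and 5.28, with 31 and 32 reads. The SMRC1 peaks at 21221894 to 21222672, 21222759 to 21223113 and 21223259 to 21223628 had folds of 3.78, 3.29 and 3.997. Folds and −log10 q depend on each library's depth and are set side by side without a test. From the start of APOB to past its end, SMRC1 had its highest −log10 q at the start and SATB1 within the far part of the gene.

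**Figure D2:**
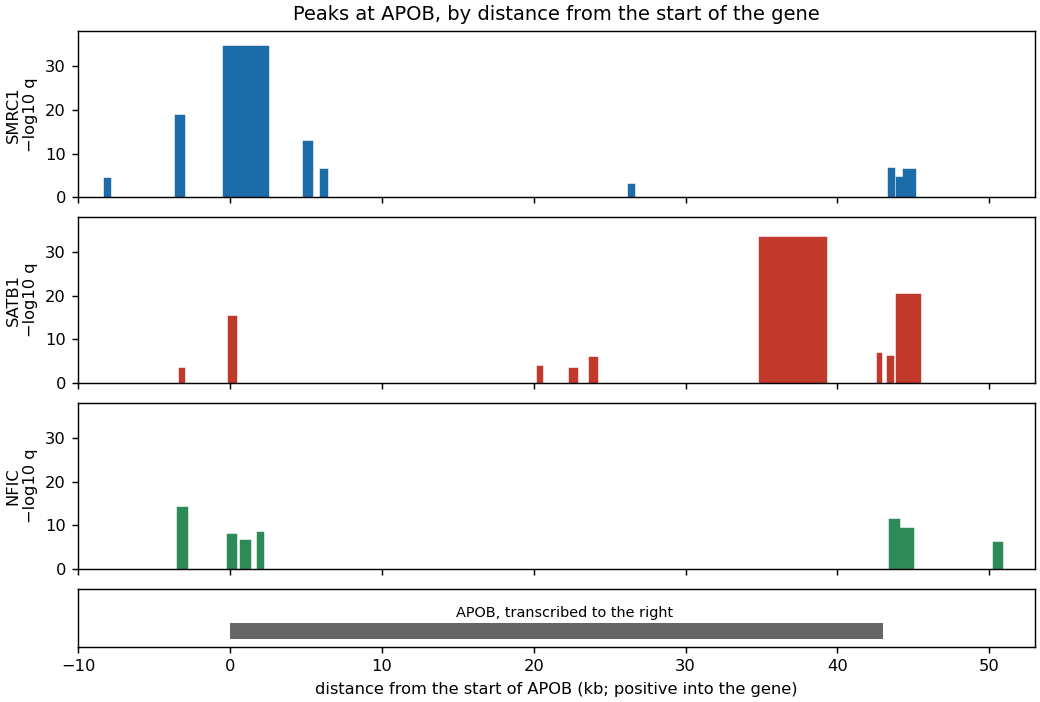
Peaks at APOB by distance from the start of the gene (kb, positive into the gene), with 1 panel per library. Each box spans a peak and its height is the deposited −log10 q: the SMRC1 peak at the start reaches 34.6, the SATB1 peak of 4453 bp, 36.4 kb into the gene, reaches 33.6, and NFIC peaks lie near both ends of the gene.

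Among the genes of high density lipoproteins, APOA1 and APOA2 had their leading SMRC1 peak at the start, and APOM had it past its end. APOA1, the main protein of these particles (chromosome 11, 116706 to 116708 kb), had an SMRC1 peak at 116708027 to 116709035, 0.6 kb before the start by its summit, with a fold of 7.91, a −log10 q of 48.8 and 121 reads where 14.2 were expected. No NFIC or SATB1 peak lay at that start. APOA2 (chromosome 1, 161192 to 161194 kb) had an SMRC1 peak of 1548 bp at 161193074 to 161194621, with the highest fold of the 30 SMRC1 window peaks (8.90), a −log10 q of 53.4 and 121 reads where 12.5 were expected. An NFIC peak at 161193072 to 161193435 overlapped its edge inside the gene (fold 3.81, −log10 q 6.82, 30 reads). The summits of these 2 peaks lay 0.2 kb before and 0.8 kb after the start, so the NFIC peak did not share the SMRC1 summit. The other SMRC1 peak of the APOA2 window, at 161188083 to 161189007, lay past the end of the gene on the side of FCER1G (fold 4.45, 56 reads).

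APOM, a carrier of sphingosine 1-phosphate on high density lipoproteins (chromosome 6, 31623 to 31626 kb), held 3 SMRC1 peaks and none of the other libraries. The peak at the start, at 31623172 to 31623870, had a fold of 3.69, a −log10 q of 13.1 and 70 reads where 18.0 were expected. The peak with the highest −log10 q, 15.4, lay at 31632479 to 31634116, 7.3 kb past the end on the side of C6orf47, GPANK1 and CSNK2B, with a fold of 3.52 and 88 reads where 24.1 were expected. The third, on the side of BAG6, had a fold of 2.75. The 2 read numbers recovered at APOM, 70 and 88, were above the median of 45 over 1500 sampled SMRC1 peaks, while the 3 folds, 2.75 to 3.69, were all below the SMRC1 list median of 4.08. The median of 45 also takes in sampled peaks with more than 1 solution, as 80.9% had a single solution. The neighbours were read from the gene order in RefSeq, and which gene a peak belongs to was not determined.

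The chromosome 11 cluster also holds genes that act on triglyceride-rich particles. APOC3, an inhibitor of lipoprotein lipase (116700 to 116704 kb), had an SMRC1 peak at its start, at 116699503 to 116700809, with a fold of 5.70 and a −log10 q of 23.6. Within it lay the only NFIC peak of the APOA1, APOC3 and APOA4 windows, at 116700058 to 116700504, with a fold of 4.24, a −log10 q of 12.0 and 44 reads where 9.61 were expected. The 2 summits were 3 bp apart, the closest pair in these loci. A further SMRC1 peak lay in APOC3 (fold 3.67, 46 reads).

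APOA4, an intestinal and hepatic apolipoprotein (116691 to 116694 kb), had no peak at its start or in the gene. The peaks of its window were 4 SMRC1 peaks and the NFIC peak on the side of APOC3, at least 3.1 kb away, and all were shared with the APOC3 window. APOA5, an activator of triglyceride breakdown (116660 to 116663 kb), had an SMRC1 peak at its start, at 116662996 to 116663724, with a fold of 3.81, a −log10 q of 7.34 and 38 reads where 9.02 were expected. Past its end, on the side of ZPR1, an SMRC1 peak (116658425 to 116658762, fold 3.54, 36 reads) and a SATB1 peak (116658443 to 116658780, fold 4.56, −log10 q 8.87, 32 reads) coincided, with summits 18 bp apart. This was the only SATB1 peak outside APOB. The APOA5 window held no NFIC peak, and the nearest lay 15.9 kb from the gene.

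APOE, the ligand that takes remnant particles to liver receptors (chromosome 19, 45409 to 45413 kb), and APOC1, an exchangeable apolipoprotein beside it (45417 to 45423 kb), held 5 SMRC1 peaks together. Of these, 2 reached within 1 kb of the APOE start: the peak at 45409337 to 45409791 had a fold of 4.20, a −log10 q of 10.8 and 48 reads, and a weaker one before it had the lowest fold of the windows (2.42, 29 reads). The peak between the genes, at 45414483 to 45414942, had a fold of 6.09 from 32 reads, where 4.18 were expected. The leading peak within these windows, at 45427256 to 45428986, was 1731 bp wide and lay 4.6 kb past the end of APOC1, on the side of the pseudogene APOC1P1, with a fold of 6.001, a −log10 q of 25.1 and 76 reads. The nearest NFIC peak was 16.3 kb from APOC1 and the nearest SATB1 peak 35 kb.

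APOH, or beta-2-glycoprotein I, a plasma protein that binds phospholipids (chromosome 17, 64208 to 64226 kb), had the surest SMRC1 and NFIC peaks of the 10 genes. Both lay 5.7 kb before its start. The SMRC1 peak at 64231352 to 64231998 had a fold of 8.19, a −log10 q of 64.8 and 157 reads where 18.0 were expected, and the NFIC peak at 64231412 to 64231928 had a fold of 5.39, a −log10 q of 27.6 and 75 reads where 13.1 were expected. At the start itself, the SMRC1 peak at 64225165 to 64226021 had a fold of 5.55 and 113 reads, and the NFIC peak at 64225589 to 64226000 had a fold of 2.73, a −log10 q of 5.57 and 43 reads where 15.1 were expected. Between these sites lay a weak SMRC1 peak with a fold of 3.32. The nearest SATB1 peak was 220.9 kb from the gene, the largest such distance among the 10 genes.

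**Figure D3:**
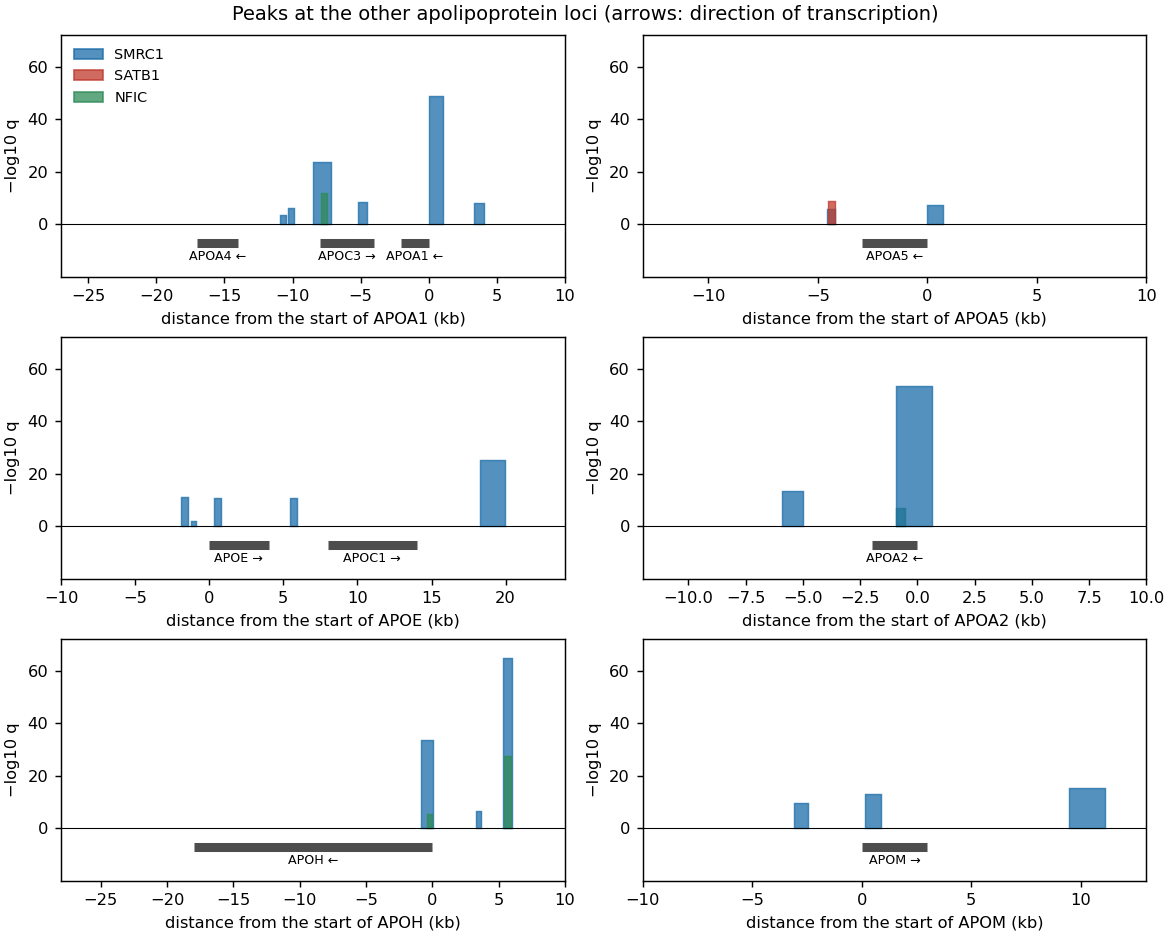
Peaks at the other 6 loci by distance along the chromosome from the start of the gene named under each panel (kb), with grey bars for the genes and arrows for their direction. Each box spans a peak, its height is the deposited −log10 q and its colour the library, and boxes of different libraries overlap: SMRC1 peaks reach 64.8 before APOH, 53.4 at APOA2 and 48.8 at APOA1.

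Overlap between the libraries at these loci was counted peak by peak, with at least 1 shared bp. Of the 11 NFIC peaks, 10 overlapped an SMRC1 peak (90.9%, exact Clopper-Pearson 95% interval 58.7 to 99.8), against 51.9% of the whole NFIC list, and 4 overlapped a SATB1 peak (36.4%, 10.9 to 69.2), against 6.52%. The NFIC peak with neither lay 7.6 kb past the end of APOB (fold 4.97, 19 reads), 1 peak of 11 against 47.8% of the list. Outside APOB all 4 NFIC peaks lay at SMRC1 peaks and 0 at SATB1 peaks. Of the 10 SATB1 peaks, 5 overlapped an SMRC1 peak (50%, 18.7 to 81.3), against 78.5% of the list, and 4 an NFIC peak (40%, 12.2 to 73.8), against 27.4%. The other 5 overlapped neither, against 20.1% of the list. Of the 30 SMRC1 peaks, 9 overlapped an NFIC peak (30.0%, 14.7 to 49.4), against 23.7%, 6 a SATB1 peak (20.0%, 7.71 to 38.6), against 8.61%, and 20 neither (66.7%, 47.2 to 82.7), against 70.7%. The intervals cover counting error only, and neighbouring peaks of 1 locus are not independent. All 4 NFIC peaks at SATB1 peaks and all 5 SATB1 peaks alone were at APOB, so these values describe that gene. Where an overlap had to cover at least 50% of both peaks, 36.4% of the NFIC peaks met an SMRC1 peak, against 31.2% of the list under the same definition, and 13.3% of the SMRC1 peaks met an NFIC peak, against 14.4% of the list. With summits within 100 bp these shares were 27.3% against 28.8%, and 10.0% against 13.3%, so both lay below the list where they lay above it with 1 shared bp.

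Counted as merged sites, the 51 peaks formed 34. Of these, 20 were SMRC1 alone, 5 SATB1 alone and 1 NFIC alone, 4 were SMRC1 with NFIC, 1 was SMRC1 with SATB1, and 3 held all 3 libraries. Merged sites of the whole lists were not counted. These site counts therefore have no genome level beside them. The sites of SMRC1 with NFIC were at the starts of APOC3, APOA2 and APOH and before APOH. The median distance between summits was 248 bp over 12 overlapping pairs of SMRC1 and NFIC peaks, with a range of 3 to 1806 bp that the wide peak at the APOB start extends.

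The strength of the window peaks was set beside that of their lists. The median fold of the SMRC1 peaks was 3.79, against 4.08 over the list, and 11 of 30 lay above the list median. The median −log10 q was 10.2 against 8.74, with 16 of 30 above, and the median width 614 bp against 607 bp. For NFIC the median fold was 4.24 against 4.87, with 3 of 11 above, and the median −log10 q 8.50 against 9.27. For SATB1 the median fold was 4.20 against 3.54, with 9 of 10 above, and the median −log10 q 6.63 against 5.397, with 7 of 10 above. These SATB1 values rest on the 9 peaks at APOB, the gene chosen for its SATB1 peak. Only 3 peaks reached the top 1% of a list by fold, −log10 q or width: the SATB1 peak of 4453 bp by all of them, and, by width alone, the SATB1 peak past the end of APOB and the SMRC1 peak at its start.

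**Figure D4:**
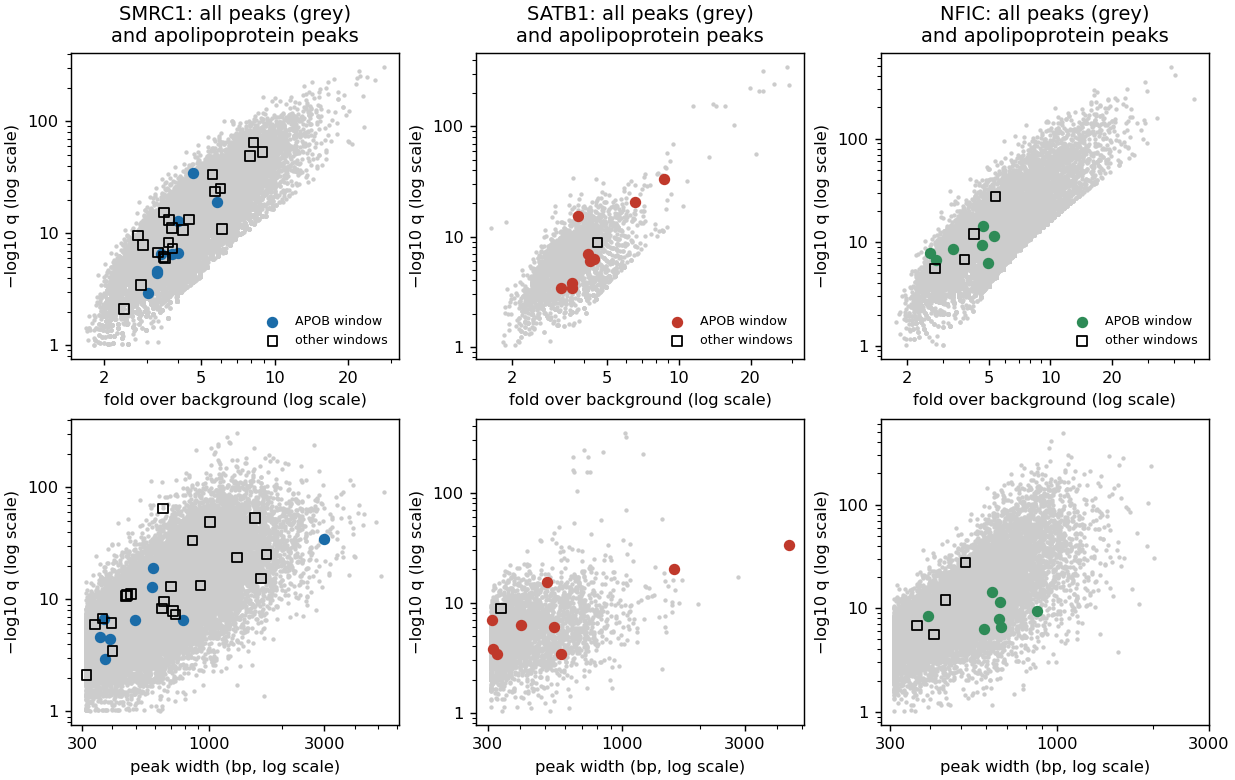
Fold (upper row) and width in bp (lower row) against −log10 q for all peaks of each library (grey) and for the apolipoprotein peaks (filled circles at APOB, open squares elsewhere), on log axes. The apolipoprotein peaks lie within the cloud of their list, apart from the SATB1 peak of 4453 bp at the right of its panel, against a next width of 2820 bp.

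The edge of the windows was set at 10 kb. With overlapping windows merged, the peak nearest inside an edge was an SMRC1 peak before APOB, 2.09 kb from it (fold 3.31, −log10 q 4.40). Nearest outside, 0.63 kb beyond the edge of the APOA4 window, was an SMRC1 peak with a fold of 6.22 and a −log10 q of 44.5.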

How the data were processed

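HepG2 chromatin was profiled by ChIP-seq with antibodies against SMRC1, SATB1 and NFIC, 1 library each, and the labels also name an input library, which was not analysed here. MACS2 2.1.1, Bowtie 1.1.2, deepTools and SAMtools, with hg19, are named in the submitters' processing notes. Settings and the choice of control are not stated in the labels. The deposited peak lists have no header and follow narrowPeak order. Their columns hold the authors' score, the fold (a ratio to local background), −log10 p, −log10 q and the summit offset, and the lowest deposited −log10 q is just above 1. Total reads are unknown.

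Peaks overlapping a gene plus 10 kb by at least 1 bp were taken, and windows that overlap were merged. Gene bounds were given in kb. Strands were taken from RefSeq promoters for 7 genes and from textbook knowledge for 3. Members, lists and settings were chosen with earlier results of these data known. Peaks described in full were the one with the highest −log10 q per library and locus, those at sites of all 3 libraries, and those in the top 1% of a list. Other peaks were chosen after their values were seen.

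Summit reads came from the MACS2 formulas of the fold and the Poisson p, solved jointly with reads whole within 0.05, and are given only where 1 solution was found. The ChIP depth relative to the control came out as 1.29 for SMRC1 and 1.01 for NFIC. For SATB1 it was set to 1 by choice in place of the fitted value, so SATB1 reads were unscaled. Overlap and recovery were tested on simulated data. Shares have exact Clopper-Pearson 95% intervals, and chromosome lengths came from GenomeInfoDb 1.38.1. Other settings tried were the −log10 q minimum, the flank, the summit in place of overlap, stricter sharing between lists, and leaving out APOB. The software was Python 3.11.15 with matplotlib 3.10.9, scipy 1.17.1, pandas 2.3.3 and numpy 2.4.6. Positions are 1-based.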

Additional observations from a re-analysis of the deposited data

How the results depend on the processing

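With a −log10 q of at least 10, the windows held 15 SMRC1, 3 SATB1 and 4 NFIC peaks. NFIC peaks then covered 0.940% of the bases, and 6.67% of those 15 SMRC1 peaks overlapped a SATB1 peak. Levels for the whole lists and the genome at this minimum were not measured. The list levels given above are therefore no like comparison for these values. Taken locus by locus, 7 of 21 shares of bases covered then moved by over 1.5 times. They fell to 6.59% for SMRC1 and 2.05% for NFIC at APOB, to 6.26% for SMRC1 at the locus of APOA1, to 1.36% for NFIC at APOH, and to 0% for SMRC1 and SATB1 at APOA5 and NFIC at APOA2. With no flank the genes held 11 SMRC1, 6 SATB1 and 6 NFIC peaks, 16.7% of the SATB1 peaks overlapped an SMRC1 peak, and 100% of the NFIC peaks did, as they did with 5 kb. With 50 kb the windows held 49 SMRC1 and 18 NFIC peaks. With at least 50% of both peaks shared, 13.3% of the SMRC1 peaks overlapped an NFIC peak (14.4% of the list) and 36.4% of the NFIC peaks an SMRC1 peak (31.2%). With summits within 100 bp these were 10.0% (13.3%) and 27.3% (28.8%), and 6.67% for SMRC1 at SATB1 (4.82%). Without APOB, a setting added after seeing the data for all but the medians, 1 SATB1 and 4 NFIC peaks were left, covering 0.191% and 0.983%. The shares were then 4.76% for SMRC1 at SATB1, 100% at SMRC1 and 0% at the other list for both SATB1 and NFIC. The other 66 counts and shares taken over all windows moved by no more than 1.5 times, or stayed within the 95% interval for shares of peaks, as did 15 medians. These intervals are wide, so large moves stay within them. With summits within 100 bp, SATB1 at SMRC1 went from 50% to 20% (43.1% of the list). NFIC at SATB1 then went from 36.4% to 18.2% (3.17% of the list). Medians of SATB1 without APOB were not taken, since 1 peak was left. No paired analysis was possible because each antibody had 1 library, and for the same reason no replicate could be left out. Gene bounds to the kb limit every distance, and total reads are unknown.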

Other observations

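Peaks with a high −log10 q also lay beyond the windows. Between APOA5 and APOA4, an SMRC1 peak of 1742 bp at 116678628 to 116680369 on chromosome 11 (hg19) had a fold of 6.22 and a −log10 q of 44.5. An NFIC peak of 1116 bp at 116678917 to 116680032 lay within it, with a fold of 4.68 and a −log10 q of 20.5, above that of the NFIC peak at APOC3 (12.0). On chromosome 19, an SMRC1 peak at 45393869 to 45394877, 4.12 kb beyond the APOE window, had a fold of 5.76 and a −log10 q of 49.7, above the 25.1 of the leading peak within. Also there, a SATB1 peak at 45458048 to 45458598, 35 kb from APOC1, had a fold of 7.14 and a −log10 q of 34.95, above the 33.6 of the widest SATB1 peak in APOB. These peaks were chosen after their values were seen, and no gene was assigned to them.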
